A study of Homo sapiens with 6 samples.

Results

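The miR-29 family was described in Huh7, an established line of human liver cancer cells. RNA was taken 48 h after the cells had received, by Lipofectamine 2000, the plasmid carrying hsa_circ_0098181 (overexpression group, 3 libraries) or the control plasmid (control group, 3 libraries, titled NC and taken here as the control plasmid that the treatment protocol names). The 7 members, which are miR-29a, miR-29b and miR-29c with both arms of their hairpins, were taken by name from the 2588 mature miRNAs listed. The family was chosen from measured values of the same comparison, because a lower count of miR-29b-3p in the overexpression group was already known, so its differences between the plasmids are given as a description. Counts of members past a threshold stand beside the share of all miRNAs past it, and are no evidence for the differences that led to the choice. All 6 libraries came from 1 cell line under transient transfection, and the labels do not say whether the replicates were separate cultures, so the spread between them, and every p-value below, may be partly technical. Values of single libraries are given in the order of replicates 1, 2 and 3.

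miRNAs of the miR-29 family are processed from hairpins of which the 3p arm is loaded as the guide strand, while the 5p arm is mostly discarded. The guide strands pair with the messages of fibrillar collagens and other matrix proteins, of the DNA methyltransferases DNMT3A and DNMT3B, and of the survival factor MCL1. In the liver, the family is known for restraining matrix deposition by stellate cells and is often reduced in fibrosis and in hepatocellular carcinoma.

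The mature sequences (RefSeq, GRCh38.p14) are shown because the members share a guide seed and differ in few other bases. Capitals mark the seed, bases 2 to 8 from the 5′ end.
hsa-miR-29a-3p: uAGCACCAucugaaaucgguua
hsa-miR-29b-3p: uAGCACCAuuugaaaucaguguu
hsa-miR-29c-3p: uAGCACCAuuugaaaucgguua
hsa-miR-29a-5p: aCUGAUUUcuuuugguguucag
hsa-miR-29b-1-5p: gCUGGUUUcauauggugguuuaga
hsa-miR-29b-2-5p: cUGGUUUCacaugguggcuuag
hsa-miR-29c-5p: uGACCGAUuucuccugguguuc

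The 3 guide strands had the same seed, which was found in 0 other miRNAs among the 2370 mature sequences of the table. miR-29a-3p and miR-29c-3p differed by 1 substitution, C10U (the base of miR-29a-3p first, counted from the 5′ end). miR-29b-3p and miR-29c-3p were identical over their first 17 bases and differed by A18G, G21U and U22A over the 22 aligned bases, after which miR-29b-3p had 1 base more. The last 6 bases of miR-29b-3p, AGUGUU, are known as an element that directs this miRNA to the nucleus of human cells. At any position, these letters were held by 1 of the 7 members and by 13 of the 2370 mature sequences (0.549%). As the last 6 bases they were held by 2 of the 2370, miR-29b-3p included. Each 5p arm had a seed of its own, which no other mature sequence held. The 5p arms of both miR-29b hairpins were identical at 20 of 22 aligned bases, with miR-29b-2-5p starting 1 base later and differing by U11C and U19C (counted in miR-29b-1-5p).

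The 4 hairpins lie in 2 clusters on the minus strand (GRCh38). MIR29A (chr7:130876747-130876810) and MIR29B1 (chr7:130877459-130877539) are 648 bases apart. In GENCODE release 29, MIR29B1 lies whole in an exon of LINC-PINT, a long non-coding RNA, and MIR29A is overlapped only in part by an exon of the same gene. Both also lie in introns of AC016831.6, on the same strand, and of LINC00513, on the opposite strand. MIR29C (chr1:207801852-207801939) and MIR29B2 (chr1:207802443-207802523) are 503 bases apart, and each lies whole in an exon of their host gene MIR29B2CHG. Since both miR-29b hairpins give the same 3p sequence, reads of miR-29b-3p cannot be assigned to a cluster. The 5p arms differ in sequence, so their reads can be assigned where they cover the differing bases.

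The libraries held 7144798 to 10786295 counts of mature miRNAs. Markers of hepatocytes, led by miR-122-5p, summed to between 403572 and 435346 TPM (counts scaled to the same total in every library) in every library, with 6 of 6 markers above the filter on low counts. The 6 stromal and stellate markers summed to 125 to 135 TPM in the overexpression group and to 135 to 144 TPM in the control group, with 5 of 6 above the filter and none at 0. The 6 blood and immune markers summed to 13.3 to 14.8 TPM and to 17.2 to 19.5 TPM, with 3 of 6 above the filter and none at 0. In TPM the groups did not overlap for these lists. After TMM scaling, which aligns the bulk of the miRNAs between libraries, the stromal sums overlapped (127 to 139 against 132 to 136 CPM) and the blood and immune sums did not (14.2 to 14.8 against 16.2 to 18.9 CPM). Their part in the results was not tested. The endothelial markers miR-126-3p and miR-126-5p summed to 4178 to 4341 TPM with the circRNA plasmid and to 3811 to 4292 TPM in the control group, which overlapped, while after TMM scaling they did not (4295 to 4716 against 3504 to 4272 CPM). Of the 552 single miRNAs tested, 16.3% in TPM and 6.52% after TMM scaling had all overexpression libraries below all controls. After TMM scaling, 49 of the 552 had them above, so nothing is read from the separation of the sums. Control replicate 3 stood apart from the other controls, with a median absolute log2 difference of 0.21 from each over 152 abundant miRNAs, against 0.049 between control replicates 1 and 2. It lay nearer to overexpression replicates 1, 2 and 3, with differences of 0.12, 0.19 and 0.16. The cause was not tested, and every difference between the groups below includes this library unless it is said to be left out.

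The family made up 1.57% ± 0.0628 of all counts (SD, n = 6), and nearly all of it was guide strand. hsa-miR-29a-3p was the most abundant member, at 13018 TPM ± 332 (SD, n = 6), and ranked 13 among all miRNAs. It held 83.0% ± 2.06 of the family's counts (SD, n = 6). hsa-miR-29b-3p followed at 1894 TPM ± 406 with 12% ± 2.16 of the family, and hsa-miR-29c-3p at 756 TPM ± 46.3 with 4.82% ± 0.324 (SD, n = 6). The 4 5p arms together made up 0.219% ± 0.0239 of the family (SD, n = 6). Among them hsa-miR-29b-1-5p was the most abundant, at 17.1 TPM ± 1.89, and hsa-miR-29b-2-5p the least, at 1.87 TPM ± 0.641 (SD, n = 6). The mature sequences are 22 to 24 bases long and a read counts a whole miRNA, so TPM was compared between members without a length correction. How efficiently each sequence is captured in a library was not measured.

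The order of the levels was compared within libraries, with neighbours taken from the order of the means over both plasmids. This order came from the same 6 libraries, so the p-values of the steps describe their constancy and are no separate support. miR-29a-3p was 7.01-fold above miR-29b-3p (log2 2.81 ± 0.30, SD, n = 6), and miR-29b-3p was 2.46-fold above miR-29c-3p (log2 1.30 ± 0.32, SD, n = 6). miR-29c-3p was 44.2-fold above the next member, miR-29b-1-5p (log2 5.47 ± 0.20, SD, n = 6). These steps, and those from miR-29b-1-5p to miR-29a-5p (2.24-fold) and from miR-29c-5p to miR-29b-2-5p (4.10-fold), had the same direction in 6 of 6 libraries (two-sided exact sign-flip permutation test, p = 0.0312 each, adjusted p = 0.0375 over the 6 pairs of neighbours, where 6 libraries cannot give a smaller unadjusted p). The pair of hsa-miR-29a-5p (7.76 TPM ± 1.96) and hsa-miR-29c-5p (7.76 TPM ± 2.06, SD, n = 6) did not differ beyond the spread. The log2 ratio of this pair was between -0.48 and 0.76, with 3 libraries on each side (exact permutation test, adjusted p = 0.969).

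The guide strand exceeded the 5p arm in each hairpin. miR-29a-3p was 1712-fold above miR-29a-5p (log2 10.74 ± 0.38, SD, n = 6), miR-29c-3p was 99.3-fold above miR-29c-5p (log2 6.63 ± 0.42), and miR-29b-3p was 98.2-fold above the sum of both miR-29b 5p arms (log2 6.62 ± 0.18). All 3 ratios were above 1 in 6 of 6 libraries (two-sided exact sign-flip permutation test, adjusted p = 0.0312 over the 3 ratios). Over the 190 hairpins with both arms listed and at least 10 TPM together, 81 had more 3p than 5p, and the median absolute log2 ratio was 5.65. Ranked by the excess of the 3p arm, MIR29A stood at 11 and MIR29C at 39 of 190. The ranks of MIR29B2 (15) and MIR29B1 (37) each set the whole of miR-29b-3p, which both hairpins give, against a single 5p arm, so these ratios are upper limits.

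The 5p arms separate the hairpins of the clusters on the chromosomes. miR-29b-1-5p, from the chromosome 7 cluster, was counted 129, 118 and 143 times with hsa_circ_0098181 and 201, 167 and 124 times with the control plasmid. miR-29b-2-5p, from the chromosome 1 cluster, was counted 13, 14 and 14 times and 20, 27 and 9 times. The ratio was 9.21-fold in favour of miR-29b-1-5p (log2 3.20 ± 0.37, SD, n = 6, two-sided exact sign-flip permutation test, p = 0.0312) and lay above 1 in 6 of 6 libraries. Its mean log2 value was 3.20 with hsa_circ_0098181 and 3.21 with the control plasmid. Within the control group it ranged from 2.61 in replicate 2 to 3.71 in replicate 3, where miR-29b-2-5p had only 9 counts (exact 95% Poisson interval 4.12 to 17.1 counts). For the guide strands, which both clusters also supply, miR-29a-3p of the chromosome 7 cluster exceeded miR-29c-3p of the chromosome 1 cluster in 6 of 6 libraries as well.

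Between the plasmids, miR-29b-3p was the guide strand that differed most. With hsa_circ_0098181 it was counted 13975, 11858 and 12752 times, which is 1752, 1400 and 1538 TPM. With the control plasmid it was counted 23515, 21482 and 14401 times, which is 2180, 2476 and 2016 TPM. All 3 overexpression libraries lay below all 3 control libraries, also after TMM scaling (1521 to 1758 against 1853 to 2400 CPM). The mean was 1563 TPM ± 177 with hsa_circ_0098181 and 2224 TPM ± 233 with the control plasmid (SD, n = 3 each), and the fitted log2 fold change of -0.40 had a standard error (SE) of 0.10 and a 95% confidence interval (CI) from -0.62 to -0.18. This is a relative level of 0.758 after TMM scaling. Among the 60 miRNAs with at least 1000 CPM, this was the lowest log2 fold change, but it is the value that led to the choice of the family. Some less abundant miRNAs had lower values, such as miR-18a-5p (-0.42, mean of 891 TPM) and miR-32-5p (-0.52, mean of 102 TPM). When only library sizes were used, as in TPM, the log2 fold change of miR-29b-3p was -0.51 (95% CI -0.73 to -0.29).

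The other guide strands did not share this difference. miR-29a-3p was at 12968, 13195 and 12496 TPM with hsa_circ_0098181 and at 12793, 13356 and 13301 TPM with the control plasmid, so the groups overlapped. Its log2 fold change was 0.087 (SE 0.071, 95% CI -0.067 to 0.24), and with the library size alone it was -0.029. With a library left out it ranged from 0.034, without overexpression replicate 2, to 0.12. miR-29c-3p was at 773, 791 and 724 TPM with hsa_circ_0098181 and at 784, 786 and 675 TPM with the control plasmid. Its log2 fold change was 0.14 (SE 0.11, 95% CI -0.091 to 0.37), and the lowest of the 6 values was that of control replicate 3. It was 0.023 without that library and 0.027 when only library sizes were used. The choice of scaling shifted every miRNA: the median of the 552 log2 fold changes was 0.0038 under TMM and -0.11 when only library sizes were used.

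Ratios within a library do not depend on this scaling. Those with miR-29b-3p as the numerator hold the value that led to the choice of the family, so they restate its difference and do not support it. The share of all pairs of miRNAs whose ratios separate the groups was not computed. The log2 ratio of miR-29b-3p to miR-29a-3p was -2.89, -3.24 and -3.02 with hsa_circ_0098181 and -2.55, -2.43 and -2.72 with the control plasmid. The groups did not overlap, and their means differed by -0.48, which is 0.717-fold. The log2 ratio of miR-29b-3p to miR-29c-3p was 1.18, 0.82 and 1.09 with hsa_circ_0098181 and 1.47, 1.66 and 1.58 with the control plasmid, again without overlap and with a difference of -0.54. In contrast, the log2 ratio of miR-29c-3p to miR-29a-3p was -4.08 ± 0.026 and -4.14 ± 0.14 (SD, n = 3 each), and the groups overlapped. Without control replicate 3, these differences were -0.56, -0.53 and -0.022. As a share of the family, miR-29b-3p made up 10.3% ± 1.11 with hsa_circ_0098181 and 13.7% ± 1.15 with the control plasmid, while miR-29a-3p made up 84.5% ± 1.04 and 81.4% ± 1.44 (SD, n = 3 each).

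The 5p arms had log2 fold changes below 0 with wide intervals. miR-29a-5p was at 6.27, 4.96 and 7.72 TPM with hsa_circ_0098181 and at 9.27, 10.4 and 7.98 TPM with the control plasmid, with a log2 fold change of -0.44 (SE 0.20, 95% CI -0.87 to -0.010). This value was -0.60 without overexpression replicate 3 and -0.32 without overexpression replicate 2. With the replicate number as a block, its 95% CI was -0.97 to 0.078. The groups did not overlap in TPM but overlapped after TMM scaling. The same held for miR-29b-1-5p (13.9 to 17.3 TPM against 17.4 to 19.2 TPM), with a log2 fold change of -0.11 (SE 0.14, 95% CI -0.41 to 0.18). This was -0.064 without overexpression replicate 2, -0.20 without control replicate 3 and -0.22 when only library sizes were used. miR-29c-5p was at 8.77, 6.61 and 5.55 TPM against 8.44, 6.11 and 11.1 TPM, and its log2 fold change was -0.17 (SE 0.23, 95% CI -0.65 to 0.32). Single libraries decided this value, which was -0.013 without overexpression replicate 3, -0.017 without control replicate 3, -0.34 without overexpression replicate 1 and -0.35 without control replicate 2. It was -0.28 when only library sizes were used. miR-29b-2-5p was at 1.63 to 1.69 TPM against 1.26 to 3.11 TPM, and its log2 fold change was -0.23 (SE 0.38, 95% CI -1.04 to 0.58). It was 0.15 without control replicate 2, which had the highest value, and -0.49 without control replicate 3, which had the lowest. The log2 ratio of miR-29b-3p to the sum of its 5p arms was 6.48 ± 0.14 with hsa_circ_0098181 and 6.76 ± 0.029 with the control plasmid (SD, n = 3 each), and all 3 overexpression libraries lay below the controls. Its numerator is the miRNA that led to the choice of the family, and the ratio of 3p to 5p counts lay below the controls in this way for 8.42% of the 190 hairpins and above them for 9.47%. The log2 ratio of miR-29b-1-5p to miR-29a-5p was higher in all 3 overexpression libraries than in the controls (1.33 ± 0.16 and 1.00 ± 0.11, SD, n = 3 each). The nearest values were 1.15 in overexpression replicate 3 and 1.11 in control replicate 3, with 64 and 57 counts of miR-29a-5p. How often such ratios separate the groups among all miRNAs was not computed, so nothing is read from this separation. For miR-29a (log2 11.00 ± 0.36 and 10.48 ± 0.19, SD, n = 3 each) and for miR-29c, the ratio of the arms overlapped between the groups.

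**Figure D1:**
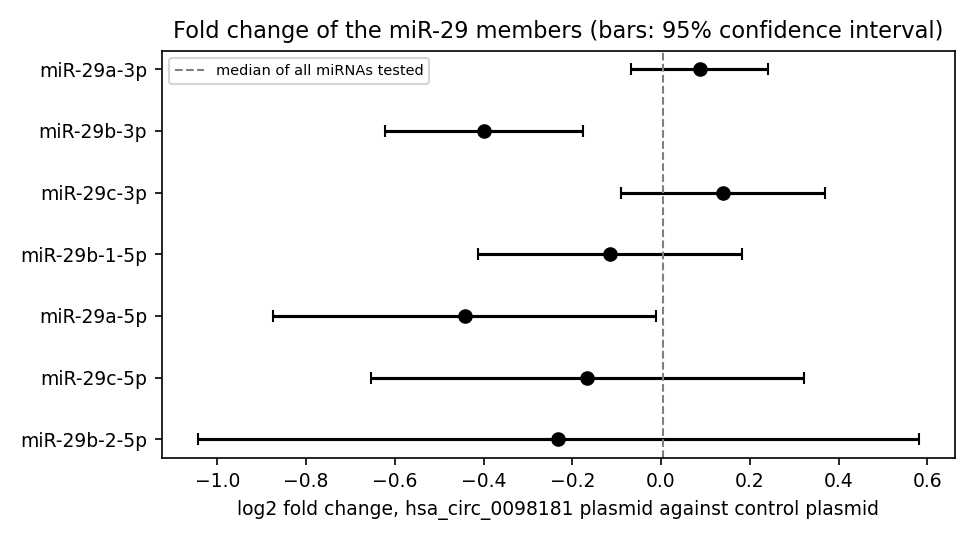
Log2 fold change of each member between the hsa_circ_0098181 plasmid and the control plasmid (points) with 95% confidence intervals (bars) from edgeR. The interval of miR-29b-3p, -0.62 to -0.18, lies below the median of all miRNAs tested (dashed line at 0.0038), as does that of miR-29a-5p, and the other 5 intervals include it.

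All 7 members passed the filter on low counts. The log2 fold change was below 0 for 5 of them, with a median of -0.17 over the members and 0.0038 over the 552 miRNAs tested. By edgeR's quasi-likelihood test, adjusted over all miRNAs after Benjamini and Hochberg, 0 of the 7 had an adjusted p under 0.05, as had 0 (0%) of the 552, and DESeq2 and limma also gave 0 members. At an unadjusted p under 0.05, with miR-29b-3p always among them, 2 members were lower in edgeR, 2 in limma and 1 in DESeq2, beside 4.71%, 4.89% and 4.71% of all miRNAs tested, and nothing is read from these counts. In TMM-scaled CPM, the overexpression libraries lay below the controls for 1 of the 7 members and for 6.52% of all miRNAs tested. In TPM this was so for 3 members and for 16.3% of all. The count of members with an adjusted p under 0.05 depended on the setting. It was 1, the miR-29b-3p by which the family was chosen, with the library size alone (0.543% of all miRNAs tested were lower at this threshold), without a filter on low counts (0.439%) and without control replicate 3 (6.73%), where the log2 fold change of miR-29b-3p was -0.51. These counts are no support for its difference.

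The precision differed between the arms. Between replicates, the TMM-scaled level of miR-29a-3p varied by 5.88% with hsa_circ_0098181 and 2.92% with the control plasmid (SD over the mean), while counting alone would give 0.307% and 0.293%. For miR-29b-3p these values were 7.50% and 12.8%, against 0.882% and 0.711% from counting. Counting error was a larger share of the spread for the 5p arms. It was 8.77% and 7.81% for miR-29b-1-5p (8.29% and 8.63% observed), 13.9% and 11.0% for miR-29a-5p (20.1% and 15.7% observed) and 13.2% and 11.6% for miR-29c-5p (21.2% and 26.1% observed). miR-29b-2-5p, with 41 counts in all overexpression libraries and 56 in all controls, had a counting error of 27.1% and 23.1% (4.76% and 46.8% observed).

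The miRNAs whose pattern over the 6 libraries was most like that of miR-29b-3p were miR-32-5p, miR-17-5p, miR-106b-5p, miR-18a-5p and miR-140-5p, with Pearson's r of 0.98, 0.98, 0.98, 0.97 and 0.96 over 6 libraries, among 308 miRNAs with at least 10 CPM. Their log2 fold changes were -0.52 (SE 0.13), -0.34 (0.091), -0.37 (0.12), -0.42 (0.13) and -0.26 (0.10). The libraries, their scaling and the difference between the plasmids are shared by all points of such a correlation, so it is given as a description. Within the family, miR-29b-1-5p stood at rank 33 (r = 0.72), miR-29c-3p at 174 (r = -0.19) and miR-29a-3p at 220 (r = -0.49). In control replicate 3, miR-29b-3p and the 5 miRNAs most like it were lower than in the other control libraries.

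Other miRNAs linked to liver fibrosis, 25 on a list without the members, were compared in the same fit. Of the 23 tested, 0 had an adjusted p under 0.05, 11 were lower with hsa_circ_0098181 and 12 higher, and the list's median log2 fold change was 9.6e-05 beside 0.0038 over all miRNAs tested. At an unadjusted p under 0.05 in edgeR, 3 were lower and 1 was higher, beside 4.71% and 4.35% of all miRNAs tested. The most abundant of them, miR-122-5p, the main miRNA of hepatocytes, was at 330931 TPM ± 8953 with hsa_circ_0098181 and 313152 TPM ± 10239 with the control plasmid (SD, n = 3 each), with a log2 fold change of 0.19 (SE 0.066). miR-33a-5p, which is encoded within the sterol regulator gene SREBF2, had the largest absolute log2 fold change, -0.72 (SE 0.25), at 7.06 TPM ± 1.58 and 12.4 TPM ± 4.09 (SD, n = 3 each). miR-199a-5p, a miRNA of stromal cells, had -0.47 (SE 0.22). miR-150-5p, a miRNA of lymphocytes, had 0.46 (SE 0.42) at a mean of 1.36 TPM over the 6 libraries.

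Of 7 miRNAs other than the members that are known to target DNA methyltransferases, 7 were tested, 0 had an adjusted or an unadjusted p under 0.05 in edgeR, 3 were lower and 4 higher, and the median log2 fold change was 0.067. miR-148a-3p, the most abundant of them, which targets DNMT1, was at 52136 TPM ± 3525 with hsa_circ_0098181 and 60974 TPM ± 3748 with the control plasmid (SD, n = 3 each), with a log2 fold change of -0.11 (SE 0.076). miR-342-3p had the largest, 0.19 (SE 0.11).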

How the data were processed

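The authors deposited counts, the number of reads assigned to each of 2588 mature human miRNAs in each of 6 libraries, without normalization. The deposited TPM values were recomputed and equal the counts scaled to a common library total (CPM) to within 0.00303, so they carry no length correction. The submitters' processing notes name TopHat2 2.0.9, TopHat, Bowtie and hg38 without their roles. Trimming, the miRNA annotation and how a read matching more than 1 miRNA was counted are not given in the sources used here, and these steps could shift counts between the similar 3p members.

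The members and the lists were chosen with earlier results of these data known. Groups were taken from the sample titles, where NC was read as the control plasmid. The whole table was fitted with R 4.3.3 and edgeR 4.0.16 (filterByExpr with a minimum count of 10 and a minimum total of 15, TMM factors, quasi-likelihood test, two-sided, Benjamini-Hochberg adjustment over 552 miRNAs, threshold 0.05). The test was also tried on simulated data with 200 altered miRNAs, but no statement here rests on the outcome. Alternatives were DESeq2 1.42.0, limma 3.58.1 on log2 of CPM with 1 or 0.1 added, library size alone, upper-quartile factors, library sizes without the most abundant miRNA, no filter, at least 10 counts in every library, the replicate number as a block, and each library left out. Ratios within libraries used counts with 0.5 added (5 as the alternative) and a two-sided exact sign-flip permutation test over 6 libraries. The miRNAs named were the members, the 5 most like miR-29b-3p and miR-29a-3p by Pearson's r over log2 of TMM-scaled CPM, and, of each list, the most abundant and those with the largest absolute log2 fold change. Totals were 7144798 to 10786295 counts, with a median of 8379124. Poisson intervals cover counting error only. Hairpin positions and mature sequences came from RefSeq (GRCh38.p14), where 7 of 7 members and 2281 of the 2588 listed miRNAs matched, and host genes from GENCODE release 29.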

Additional observations from a re-analysis of the deposited data

How the results depend on the processing

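The number of members with an adjusted p under 0.05, 0 in edgeR with TMM factors, was 1 (miR-29b-3p, by which the family was chosen) when only library sizes were used (0.543% of all miRNAs tested were lower at this threshold) and also 1 when no filter was set on low counts (0.439%). With a library left out it was from 0 to 1, where the 1 was without control replicate 3 (6.73%). None of these counts supports the difference of miR-29b-3p. The cause was not tested. It was 0 with DESeq2, limma, upper-quartile factors, library sizes without the most abundant miRNA and at least 10 counts in every library. The log2 fold change of miR-29a-3p, 0.087, was -0.029 when only library sizes were used. That of miR-29b-2-5p, -0.23, ranged from -0.49 without control replicate 3 to 0.15 without control replicate 2. The other 102 of 104 alternative values of the members kept their direction, but not always their size: with a library left out, miR-29c-5p ranged from -0.35 to -0.013 and miR-29c-3p from 0.023 to 0.19. For miR-29b-3p the range was -0.51 to -0.32, with the ends reached without control replicates 3 and 2. miR-29b-2-5p, with 9 counts in 1 library, has no value where 10 counts were required in every library. Whether the replicate numbers pair the libraries is not stated. The correlations of the deviations of same-numbered libraries were -0.025, 0.15 and 0.24, and of the numbers only replicate 3 was the best match in both groups. These values were not tested and cannot settle the pairing. With the replicate block, 0 members had an adjusted p under 0.05 and the log2 fold change of miR-29b-3p was -0.39. Adding 5 counts changed no call of the ratios within libraries, and with a library left out their means moved by less than their SD, although the mean of miR-29a-5p over miR-29c-5p lay on either side of 0 (-0.15 to 0.098). With 5 libraries the sign-flip test cannot go below 0.0625, so no p was computed there. The depth limits miR-29b-2-5p most, with 9 to 27 counts per library.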

Other observations

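The miRNAs whose pattern over the 6 libraries was most like that of miR-29a-3p were miR-7-5p, miR-99a-3p, miR-7974, miR-3144-3p and miR-5583-3p, with Pearson's r of 0.97, 0.95, 0.95, 0.94 and 0.94 over 6 libraries, among the same 308 miRNAs. miR-7-5p, which is made from several hairpins, was of similar abundance to miR-29a-3p, at 14396 TPM against 13018 TPM as means of the 6 libraries, and its log2 fold change was 0.068 (SE 0.069). miR-29c-3p, of the other cluster, stood at rank 12 (r = 0.86), and miR-29b-3p at rank 247. The 5 miRNAs most like miR-29a-3p and the 5 most like miR-29b-3p are given as a description, since all points share the libraries and their scaling.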
